A study of Equus caballus with 10 samples.

Results

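In whole blood of 10 Arabian horses, 42 genes stood higher in every one of the 4 trained horses than in any of the 6 untrained horses. These 42 were chosen from 964 genes with 10 or more counts in 4 or more of the 10 libraries, out of 26991 gene rows in the deposited count table. The 37 highest-numbered gene IDs were left out of the choice beforehand. Counts were divided by median-of-ratios size factors, which scale each library by the median ratio of its genes to their geometric means, and the result is called the normalized count below. A gene was a member where its lowest trained value lay above its highest untrained value, so the trained against untrained difference itself is how the genes were chosen and no finding about them. The share of the 964 genes chosen was 4.36%, and a further 32 genes (3.32%) lay lower in every trained horse.

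Untrained horses were 2.5 years old and comprised males 17, 50, 52 and 53 and females 49 and 51. Horses in racing training, called trained here, were 3 years old and comprised males 21 and 33 and females 31 and 32. All were Arabians and no agent or allele is named in the labels. Every horse in training was older than every untrained horse, so training and age cannot be told apart. The sources used here do not say when in the training season blood was drawn or how long after exercise.

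Blood RNA comes from circulating leukocytes, platelets and the few red cell precursors that leave the marrow, and exercise is known to move leukocytes between tissue stores and the circulation. The series title places the study in bone remodelling, the paired removal of bone by osteoclasts, which descend from the monocyte lineage in blood, and its rebuilding by osteoblasts. In bulk blood, a higher level of a transcript from more cells of a type and one from more RNA per cell cannot be told apart. The same holds for a lower level, from fewer cells or less RNA per cell. The files give Ensembl IDs without names, and the horse reference table matched 0 of them. What the 42 genes encode is therefore not described, blood cell markers were not checked, and at most 2 IDs are printed. The other members are called by their rank in mean normalized count over the 10 horses, from 1 (highest) to 42.

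The libraries were shallow, with 70899 to 117853 counts in trained and 108716 to 129195 in untrained horses. The trained males stood apart in makeup. The 10 most abundant genes held 37.7% of counts in horse 21 and 36.2% in horse 33. The females in training, 31 and 32, had 30.7% and 33.1%, and the range without training was 29.99% to 32.6%. Counts were seen for 1956 and 1762 genes in horses 21 and 33, and for 2113 to 2384 genes in the other 8 horses. Horse 33 had the lowest total (70899 counts, the next being 108331 in horse 32), so its number of genes seen cannot be told apart from depth. The total count per unit of size factor was 134056 in horse 21 and 119917 in horse 33, against 98999 to 112040 in the other 8. A gene with an equal share of all counts therefore comes out higher after scaling in horses 21 and 33 than in the others, and values with other scalings are given below.

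The members ran from 7.54 to 8149 in mean normalized count. Of the 42, 2 averaged over 1000 normalized counts, 10 averaged 100 to 1000, 16 averaged 30 to 100 and 14 averaged 30 or less. Their median was 52.5, against 27.3 over all 964 genes. All 10 libraries held at least 10 counts for 38 members. No member passed the count minimum through trained libraries alone, and 2 members (ranks 41 and 42) reached it in fewer than 4 untrained libraries. As a share of all counts in a library, without any scaling factor, the members took 13.2% ± 0.525 (SD, n = 4) of trained libraries and 10.7% ± 0.742 (SD, n = 6) of untrained libraries. Most of this belonged to the member ranked 1. Without it the share was 5.01% to 5.24% in trained and 3.17% to 4.03% in untrained horses, so the trained horses lay close together on this measure.

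The most abundant member was ENSECAG00000000651, which held 63.9% of the members' summed normalized counts. Its normalized count was 8183, 6964, 7172, 7910, 7138 and 6536 in untrained horses 17, 50, 52, 53, 49 and 51. In trained horses 21, 33, 31 and 32 it was 10919, 8868, 8314 and 9482. Horse 21 stood highest, and trained female 31 lay just above untrained male 17, by a factor of 1.02. The trained mean was 9396 ± 1122 (SD, n = 4) and the untrained mean 7317 ± 615 (SD, n = 6), a ratio of 1.28.

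The member with the largest ratio was ENSECAG00000008639, ranked 25. Its normalized count was 12.3, 21.5, 12.7, 11.3, 26.6 and 15.5 in untrained horses 17, 50, 52, 53, 49 and 51, from 13 to 29 counts per library. In trained horses 21, 33, 31 and 32 it was 63.0, 120.1, 40.1 and 70.9, from 47 to 71 counts. Horse 33 was far above the other trained horses, and untrained female 49 was the nearest untrained horse to trained female 31. The means were 73.5 ± 33.7 (SD, n = 4) and 16.6 ± 6.12 (SD, n = 6), a ratio of 4.42, and the lowest trained value was 1.51 times the highest untrained one. That gap was the widest among the 42.

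**Figure D1:**
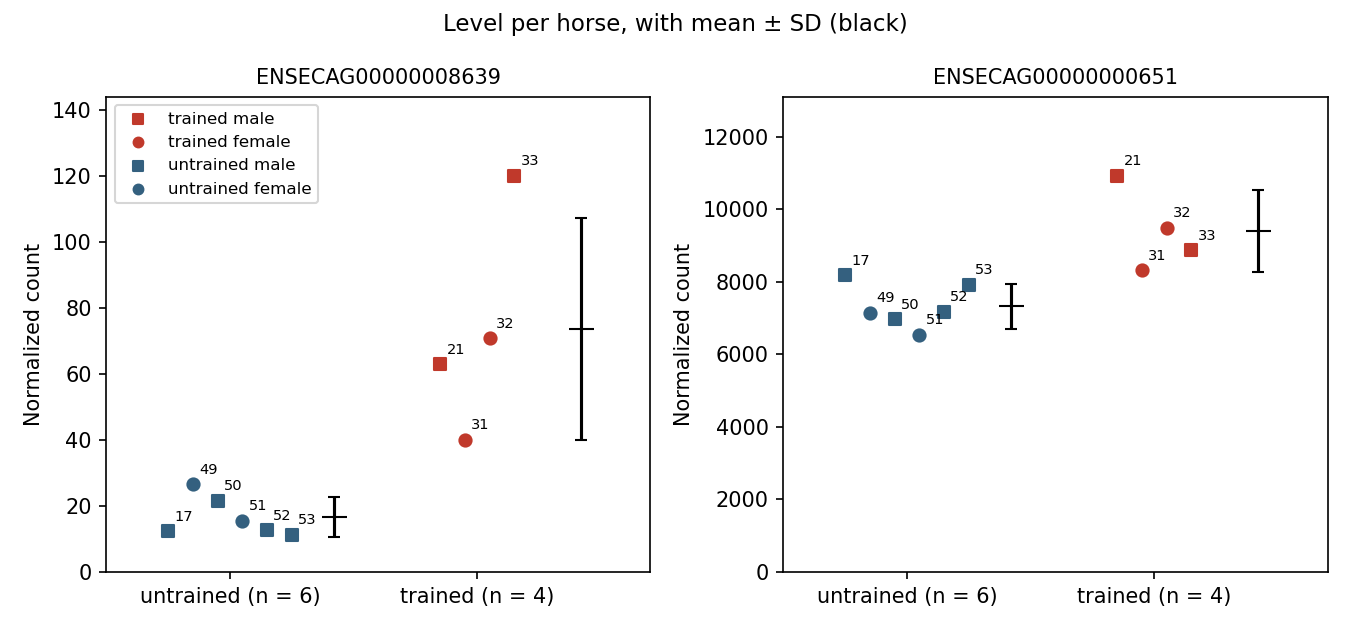
Normalized count (y axis, from 0) of ENSECAG00000008639 and ENSECAG00000000651 in each horse, labelled by horse number, with squares for males and circles for females. Black bars are the mean ± SD of 6 untrained and 4 trained horses. In the left panel trained horses run from 40.1 to 120.1 and untrained horses from 11.3 to 26.6, while in the right panel trained horse 31 (8314) lies close to untrained horse 17 (8183).

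Ratios of the group means over the 42 ran from 1.17 to 4.42, with a median of 1.69, where the median over all 964 genes was 1.01. Of the members, 4 had a ratio of at least 2, 27 had one from 1.5 to 2, and 11 had one under 1.5. The rarer members had the larger ratios, with a median of 1.76 for those averaging 30 or less and 1.56 for those averaging 100 to 1000. A rare gene varies more by counting alone and needs a larger ratio to keep 10 horses apart, so this order is in part set by the rule. In all 42, the difference of the means was larger than the SD of either group. The rule favours this as well, since it kept only genes whose groups do not overlap, so it is no finding about them.

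Among the other abundant members, the one ranked 2 had the trained males far above the rest on the median-of-ratios scale. Trained males 21 and 33 had 1836 and 1529 normalized counts, whereas trained females 31 and 32 had 961 and 1077. Untrained values were 670 to 888, with a median of 787. The member ranked 8 had 359, 227, 178 and 201 in trained horses 21, 33, 31 and 32, and 82.6 to 138 in untrained horses, with a median of 99.8. Its ratio of means was 2.27. The member ranked 11 was more even, at 182, 211, 170 and 178 in the same trained horses against 76.3 to 129 in untrained horses (median 96.8), a ratio of 1.87.

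The trained horses did not share 1 pattern over the members. In 9 of the 42 members (21.4%), the highest trained horse was within 1.2 times of the lowest, against 3.94% of all 964 genes. The rule favours such genes, since a low trained horse removes a gene. Their ratios to untrained horses were 1.17 to 1.88. The member ranked 7 is an example, with 209, 196, 206 and 215 in trained horses 21, 33, 31 and 32. At the other end, 4 members (ranks 8, 25, 33 and 35) had trained horses more than 2 times apart. The member ranked 33 had 44.0 and 33.8 in trained males 21 and 33. Trained females 31 and 32 had 20.5 and 20.96, just above the highest untrained value of 19.8.

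**Figure D2:**
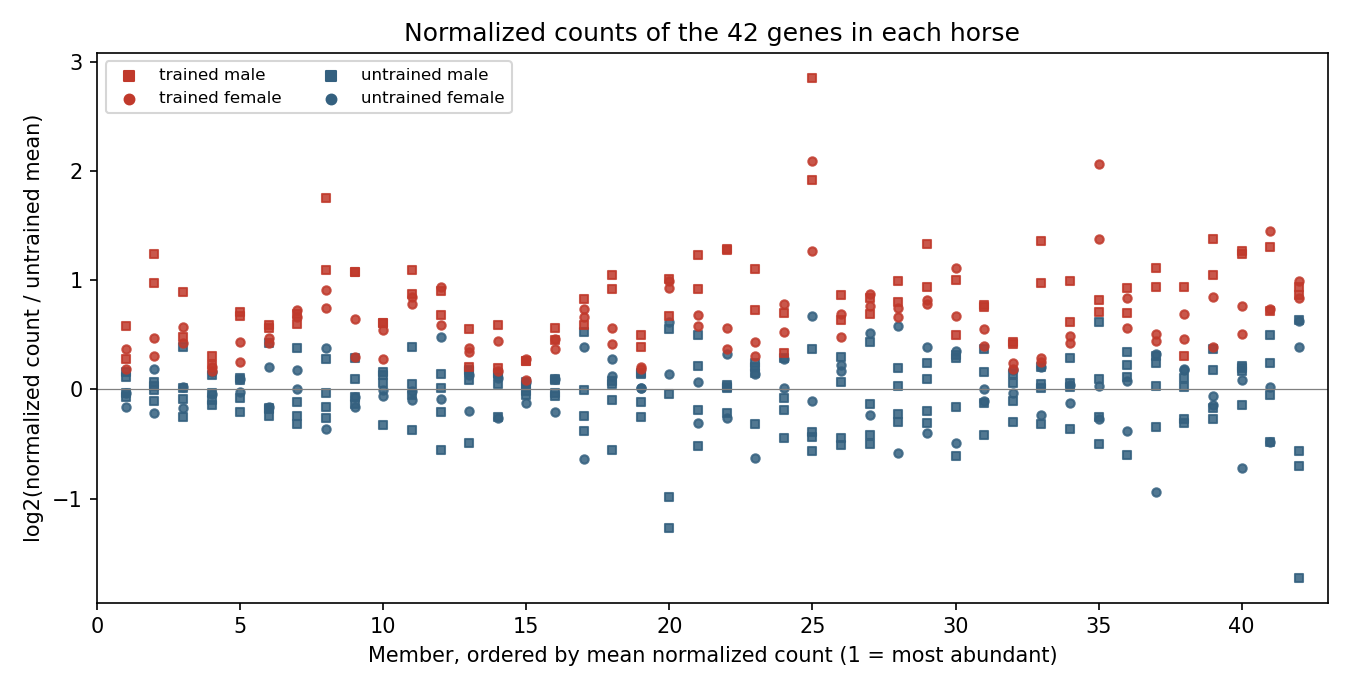
Each of the 42 members (x axis, by rank of mean normalized count) with 1 point per horse, as log2 of the normalized count over the mean of the 6 untrained horses (y axis). Red marks are trained and blue marks untrained horses, with squares for males and circles for females. In each column the trained points lie above the untrained points, as the rule requires, and the distance between the groups is small for most members and widest at rank 25.

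The rule did not use the order of the horses within each group, but it can shape that order. It removes genes in which a trained horse is low or an untrained horse is high. Horse 21 was the lowest trained horse in 30.5% of all 964 genes but in 4.76% of the members. With median-of-ratios factors the trained males led the order over the members, and with library totals they did not. Horse 21 was the highest trained horse in 23 of the 42 members (54.8%) and horse 33 in 10 (23.8%). Over all 964 genes, these shares were 33.1% and 20.95%. Horse 31 was the lowest trained horse in 22 members (52.4%), against 29.9% of all genes. Both trained males lay above both trained females in 22 members (52.4%), against 28.5% of all genes, and both females lay above both males in 1 member (2.38%), against 27.8%. Among the 32 genes lower in every trained horse, both females lay above both males in 21 (65.6%) and the reverse held in 1. With these factors the trained males thus lay further from untrained horses in both sets, and their lead is not particular to the members. No test was made of these shares. With TMM, both trained males lay above both females in 16 members and the reverse held in 5. With library totals the order turned, to 8 members with both males above (19.0%, against 14.6% of all genes) and 16 with both females above (38.1%, against 41.4%). Horse 21 was then the highest trained horse in 9 members and horse 31 in 18. The values on males and females below are thus tied to the scaling.

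Relative to the untrained mean of each gene, the median over the 42 members was 1.85 in horse 21, 1.65 in horse 33, 1.47 in horse 31 and 1.45 in horse 32. Over all 964 genes the same medians were 1.002, 0.986, 0.968 and 0.974. The rule fixes that all 4 medians of the members lie above 1, and their order changed with the scaling. With library totals the members' medians were 1.42 in horse 21, 1.42 in horse 33, 1.51 in horse 31 and 1.38 in horse 32, so trained males did not lead. The members' share of all counts was likewise 13.4% and 12.5% in horses 21 and 33 and 13.3% and 13.8% in horses 31 and 32. Compared within each sex, the trained to untrained ratio had a median of 1.76 in males (range 1.19 to 6.34) and 1.45 in females (range 1.09 to 3.66) over the members. Over all 964 genes the medians were 1.01 in males and 0.982 in females. The ratio was larger in males in 35 of the 42 members (83.3%), against 48.5% of all genes. Among the 32 genes lower in every trained horse, the ratio was larger in males in 4 (12.5%). With TMM it was larger in males in 28 members, and with library totals in 23 (54.8%, against 36.3% of all genes), where the medians were 1.45 in males and 1.40 in females.

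On the median-of-ratios scale, in 8 members (ranks 2, 8, 9, 22, 25, 33, 39 and 40) the mean of the trained males was at least 1.5 times that of the trained females. For these 8, the within-sex ratio was 2.02 to 6.34 in males and 1.204 to 2.64 in females. The member ranked 22 had 93.9 and 93.0 in trained males 21 and 33. Trained females 31 and 32 had 49.5 and 56.9, and untrained horses had 32.1 to 48.2 (median 38.9). The member ranked 35 went the other way. Trained females 31 and 32 had 56.4 and 34.9, and trained males 21 and 33 had 23.8 and 21.99. Untrained horses had 9.54 to 20.7 (median 12.5). The within-sex ratio was 3.66 in females and 1.64 in males.

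**Figure D3:**
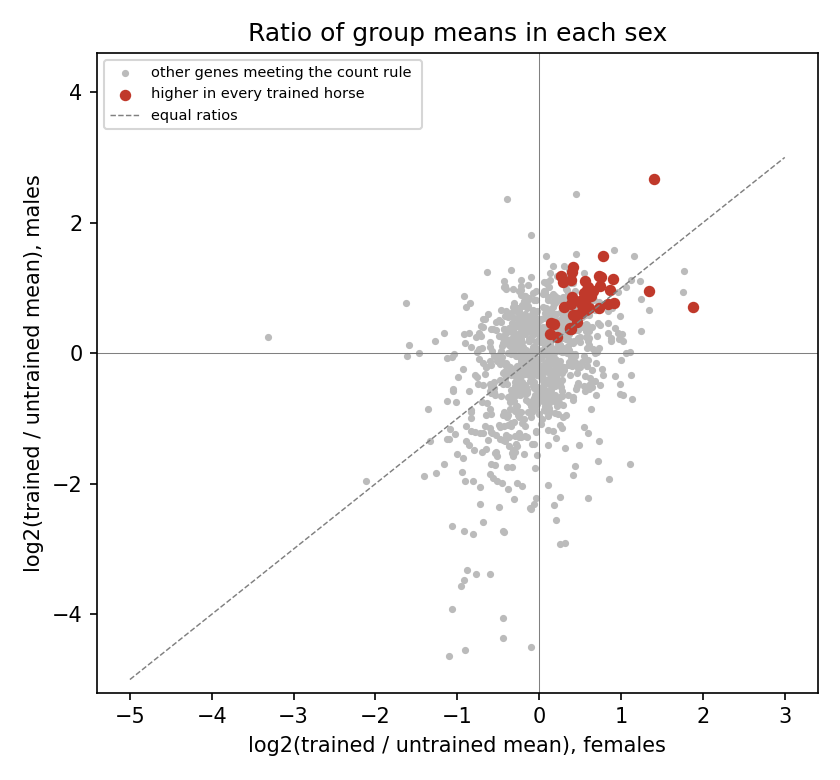
Trained over untrained mean normalized count, as log2, in females (x axis, 2 trained and 2 untrained horses) and males (y axis, 2 trained and 4 untrained horses) for the 42 members (red) and the other 922 genes that met the count rule (grey). Above the dashed line the ratio is larger in males. All 42 members have ratios above 1 in both sexes, as the rule requires, and 35 lie above the line with these factors, against 23 with library totals.

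Males against females is a contrast that the rule did not use directly, and it was fitted over all genes with training as a covariate. The rule can still limit it in the members. Both groups hold both sexes, and a gene with the sexes far apart within a group more easily has groups that overlap. The members' share under a p threshold is thus in part set by the rule. Of 968 genes tested (edgeR quasi-likelihood test), 0 passed an adjusted p of 0.05 (0%), and 46 (4.75%) had an unadjusted p under 0.05. Of the 42 members, 41 could be tested, 0 passed, and 0 had an unadjusted p under 0.05. The member left out (rank 42) had too few counts for the filter. DESeq2 and limma voom also called 0 genes for sex and put 39 and 38 under an unadjusted p of 0.05. The log2 difference of males minus females ran from -0.45 to 0.45 over the 41 members, with a median of 0.07, and was above 0 in 27 (65.9%, against 48.9% of all tested genes). Standard errors of these differences were 0.147 to 0.325. No difference was detected with 10 horses, which does not show that the sexes were alike.

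Whether the trained to untrained difference itself differed between males and females was tested with an interaction term. Again 0 of 968 genes (0%) passed the adjusted threshold in edgeR, and 150 (15.5%) had an unadjusted p under 0.05. Among the 41 members tested, 0 passed and 3 (7.32%) had an unadjusted p under 0.05. DESeq2 and limma voom called 0 genes and put 101 and 148 under an unadjusted p of 0.05. Without untrained male 17, edgeR called 2 genes, 0 of them members. The 3 members under an unadjusted p of 0.05 were those ranked 2, 22 and 35, singled out by their p and described above, with a larger difference in males for ranks 2 and 22 and in females for rank 35. The interaction was above 0, that is larger in males, in 31 of the 41 members (75.6%), against 43.7% of all tested genes, with a median of 0.18 on the log2 scale. The rule limits this term in the members, since genes in which 1 trained sex overlaps the untrained horses were left out by it.

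For ENSECAG00000008639 the interaction was 1.16 on the log2 scale (SE 0.546, edgeR adjusted p = 0.316). Its log2 difference of males minus females was 0.08 (SE 0.308, edgeR adjusted p = 0.989). For ENSECAG00000000651 these values were -0.07 (SE 0.307, edgeR adjusted p = 0.920) and 0.12 (SE 0.176, edgeR adjusted p = 0.939). In neither gene did a sex term pass the threshold, which does not show that the sexes were alike.

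Untrained horses also differed among themselves over the members. Horse 17 was the highest untrained horse in 16 members (38.1%, against 24.4% of all 964 genes) and horse 49 in 12 (28.6%, against 14.0%). In 10 members (23.8%) these were the 2 highest untrained horses, against 10.996% of all genes. The rule can shape this order too, and these shares were not tested. Horse 17 is a male and horse 49 a female. The median over the members, relative to the untrained mean, was 1.11 in horse 17 and 1.08 in horse 49, and 0.930 to 0.998 in the other 4 untrained horses. Over all 964 genes it was 0.983 and 0.977 in these 2 horses.

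This split is plain in single members. The member ranked 20 had 64.2 and 66.9 in untrained horses 17 and 49 and 18.1 to 48.2 in the other 4. Its trained horses 21, 33, 31 and 32 had 88.0, 69.3, 87.1 and 82.9. The member ranked 27 had 39.7 and 42.1 in horses 17 and 49, 20.8 to 26.7 in the other untrained horses, and 47.5, 52.4, 53.8 and 49.9 in trained horses 21, 33, 31 and 32. In both members untrained horses 17 and 49 stood between the trained horses and the other untrained horses. At rank 27 the trained horses lay close together. At rank 20 trained horse 33 (69.3) lay nearer to untrained horse 49 (66.9) than to the other trained horses (82.9 to 88.0). The labels give nothing that sets horses 17 and 49 apart, but their libraries differed. Their totals were 109282 and 108716 counts, against 114928 to 129195 in the other untrained horses. Their 10 most abundant genes held 32.5% and 32.6% of counts, against 29.99% to 31.6%. Whether this bears on the split was not tested, and the order of untrained horses is given on the median-of-ratios scale alone.

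**Figure D4:**
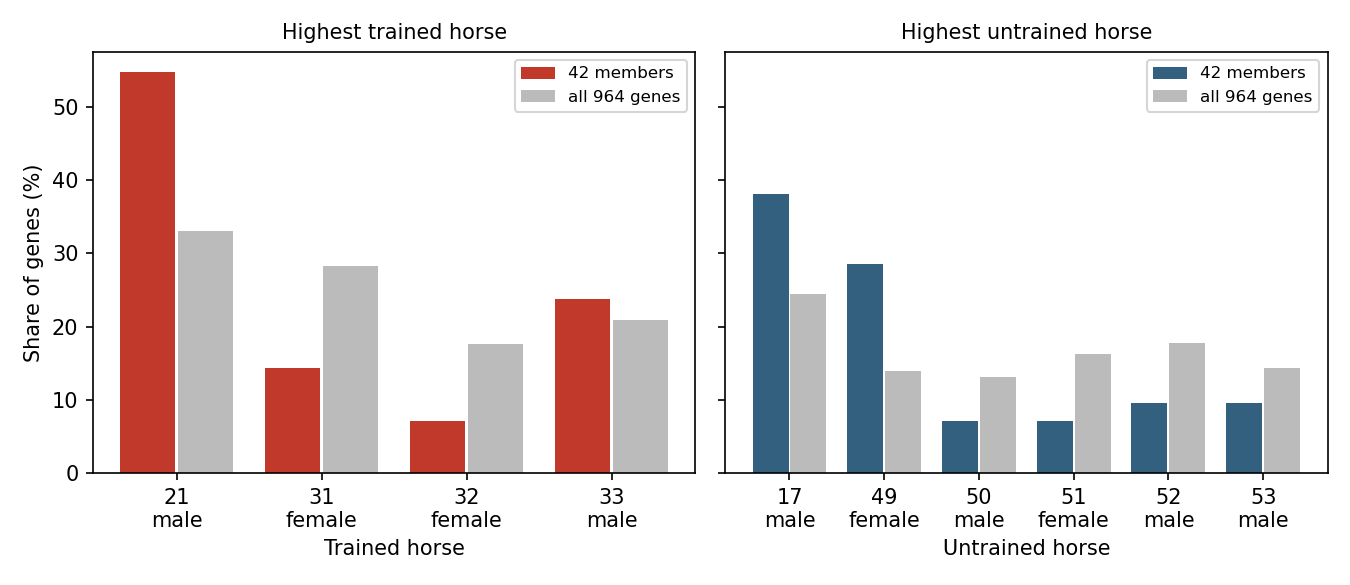
Share of genes (y axis, percent, from 0) in which each horse is the highest of its group, for the 42 members (coloured) and all 964 genes that met the count rule (grey). Left, the 4 trained horses; right, the 6 untrained horses. With median-of-ratios factors horse 21 leads 54.8% of the members among trained horses (21.4% with library totals), and horses 17 and 49 lead 38.1% and 28.6% among untrained horses.

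The groups were close at their edges. The lowest trained value was at most 1.1 times the highest untrained value in 26 members, over 1.1 times in 16 and over 1.2 times in 6 of these, with a median of 1.07. After the member ranked 25, the widest gaps were 1.32 (rank 29) and 1.31 (rank 11). Just inside the rule were gaps of 1.0007, 1.006 and 1.007, the narrowest being 186.1 against 186.0 normalized counts. Just outside it were gaps of 0.9998, 0.991 and 0.985, the first being a gene with 11.84 in both its lowest trained and its highest untrained horse, from 7 and 14 counts, and a ratio of means of 2.60. For the nearest gene on either side, membership turned on less than 1 count.

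For the closest pair of horses, the counting intervals overlapped in each member. With exact 95% Poisson intervals on the counts of the lowest trained and the highest untrained horse, the intervals were apart in 0 of the 42 members. For ENSECAG00000008639, 47 counts in horse 31 gave 29.5 to 53.4 normalized counts and 29 counts in horse 49 gave 17.8 to 38.2. For ENSECAG00000000651, the intervals were 8150 to 8481 in horse 31 and 8012 to 8357 in horse 17. These intervals cover counting error alone, for the closest pair of horses in each gene.

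The number of members with groups apart depended on the scaling. With TMM-scaled library sizes, 33 of the 42 members kept the groups apart. With library totals, 19 did, and with unscaled counts 2 did, ENSECAG00000008639 among them. The mean stayed higher in trained horses in all 42 members with TMM and with library totals, and in 38 with unscaled counts, which carry the difference in depth. Library totals moved the median log2 ratio of all 964 genes to -0.14, from 0.01 with median-of-ratios. Relative to the all-gene median ratio, the members' median ratio was 1.68 with median-of-ratios, 1.67 with TMM and 1.66 with library totals. With unscaled counts it was 1.65. Dividing by the all-gene median largely removes the scaling, so these values had to be close and do not show that the difference withstands it. The 19 members that stayed apart with library totals had a median ratio of 1.75 on the median-of-ratios scale, against 1.55 for the 23 that came to overlap. With library totals the 964 genes held 20 with trained horses above and 35 with trained horses below, against 42 and 32 here.

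The rule was also applied with single horses left out. With factors and filter recomputed without 1 horse, 44 to 82 genes (4.64% to 8.70%) met the rule. Of the 42 members, 39 to 42 were among them. The longest lists came without trained female 31 (82 genes) and without untrained male 17 (78 genes), the horses that most often stood nearest the other group. Without both trained males, 79 of 954 genes had trained females 31 and 32 above all untrained horses, and 41 of the 42 members were among them. Removing a horse can only ease the rule, apart from the change in factors and filter, so these counts do not measure stability.

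Past the choice by ranges, the trained against untrained contrast was also fitted with edgeR over 968 genes, where 16 genes (1.65%) were called higher in trained horses. Of the 42 members, 12 were among them, and this count is a description, since the rule used the same contrast. The 4 other genes called higher had gaps of 0.861 to 0.9998, that is with groups that overlapped. The 12 had ratios of at least 1.59. Leaving out trained horse 21, 31, 32 or 33 moved the number of members called to 4, 20, 2 and 1 in that order. Over all genes tested, 4 of 1012, 46 of 999, 2 of 1012 and 1 of 1014 were then called higher. Leaving out untrained horse 17, 49, 50, 51, 52 or 53 gave 27, 10, 5, 7, 5 and 6 members. Over all genes, 55 of 961, 16 of 958, 5 of 954, 10 of 956, 8 of 949 and 8 of 953 were called higher. Without both trained males, 2 members were called, and 2 of 1066 genes over all tested.

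In the authors' deposited table, which holds mean normalized counts for 2405 genes, 5 genes (0.208%) were called higher in trained horses, and all 5 were members, at ranks 2, 8, 11, 25 and 35. The authors' deposited table gave an adjusted p of 0.0343 for ranks 2 and 35, 0.000365 for rank 8, 0.0196 for rank 11 and 8.15e-06 for ENSECAG00000008639 at rank 25. The other 37 members were not called there. These calls come from the same contrast and the same counts that the rule used. They are a description and no separate support for the members. Of these 5 genes, those ranked 2, 8 and 25 had trained males at least 1.5 times above trained females, rank 35 had the females higher, and rank 11 had both males above both females by a factor of 1.13 in the means, all on the median-of-ratios scale.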

How the data were processed

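Whole-blood RNA of 10 horses was turned into cDNA libraries (TruSeq RNA Kit v2), per the protocols in the labels, and read as 75-base single ends in 6 technical repetitions, per the series' design text. The sources used here do not say whether the deposited counts sum the repetitions. FastQC, STAR, RSEM and DESeq, without versions, are the tools in the submitters' processing notes. Genome build, annotation and strand were likewise not given, so overlapping genes and near-identical copies may share reads. The authors' deposited count table holds whole counts, not normalized. The authors' deposited comparison table holds group means of counts over size factors (signal), their ratio (fold), its log2, and a p-value and adjusted p-value. Group means recomputed from the counts differed by at most 5.0e-12.

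Members were found by the range rule stated above, with size factors from the 1278 gene rows with a count in all 10 libraries. Members and lists were chosen with earlier results of these data known. Contrasts were fitted with edgeR 4.0.16 (quasi-likelihood, two-sided, TMM, filterByExpr with a minimum count of 10 and total of 15) in R 4.3.3, adjusted by Benjamini-Hochberg over all tested genes at 0.05, and tested on simulated data. Alternatives were DESeq2 1.42.0, limma 3.58.1 (voom), other scalings and filters, and horses left out. Samples are separate horses, so p-values measure spread between horses. The rule for printed IDs took the member with the largest ratio and the most abundant member. The gene and marker lists fixed by symbol could not be used without symbols.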

Additional observations from a re-analysis of the deposited data

Results flagged for a closer look

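Dixon's gap test was applied to 96 sets of values, those of the 42 members and 6 library measures in each of the 2 groups, and 1 set held a horse far from the others. The usual rate of about 1 set in 20 holds for separate sets that were not chosen by their values. The members were so chosen and all sets share the same 10 libraries, so the number of flags is not compared with that rate. It was the member ranked 15, whose normalized count in trained horse 31 was 91.4, against 103.2 in the next trained horse, which is 0.878 of the distance between the lowest and the highest trained horse. Its highest untrained value was 90.5, so trained horse 31 lay beside the untrained horses in this member.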

How the results depend on the processing

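Settings marked as added were picked after seeing the data. The count of 42 genes higher in every trained horse stayed within 1.5 times with TMM (36), size factors without the 37 highest-numbered IDs (41, added), no filter (53), 20 or more counts in 4 or more libraries (36) and 10 or more in all 10 libraries (38). It moved to 20 with library totals, 2 with unscaled counts, 16 with a gap of at least 1.1 (added), 79 without both trained males, 101 without untrained horses 17 and 49 (added), 195 in males and 194 in females, where fewer horses make the rule easier to meet. Leaving out 1 horse gave 44 to 82 (4.64% to 8.70% of genes). A similar count did not mean a similar share, since the number of genes changed. The share was 4.36% here, 1.27% of 4177 genes without a filter and 6.43% of 591 with 10 or more counts in all 10 libraries. Those settings had 58 and 12 genes lower in every trained horse, against 32 here. The share was 23.0% of 848 genes in males and 25.5% of 762 in females, with 170 and 160 genes lower. Size factors from all gene rows, planned as an alternative, are the rule's own factors and gave the same 42. The 16 genes that edgeR called higher for training became 36 with DESeq2, 33 with limma voom, 35 without a filter, 36 without the 37 highest-numbered IDs, 7 with library totals (added; 36.8% of calls higher, against 64%) and 2 without both trained males (added), and 1 to 55 with 1 horse left out. They stayed within 1.5 times with RLE factors (17), sex as a covariate (20) and a mean of at least 30 counts (11). Sex calls stayed at 0 in each setting but no filter (16) and interaction calls in each but no filter (22) and with 1 horse left out (0 to 2), and 0 members were among any of these. Fits that leave 1 trained horse of a sex assume that it varies like the others. The ratio of ENSECAG00000008639 stayed between 3.34 and 5.50 and that of ENSECAG00000000651 between 1.149 and 1.352. The settings were TMM, library totals, 1 horse left out, and trained males or females alone (both added). The lowest trained and highest untrained horses of the members had medians of 57 and 57.5 counts. The order of trained males and females over the members changed with library totals (added), as given above. The cause of the moves was not tested.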
